A study of Mus musculus with 8 samples.

Results

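Mucins are heavily glycosylated proteins of epithelial surfaces. Of this gene family, 8 members were followed in the mouse uterus with and without a deletion of Foxa2: the membrane-bound mucins Muc1, Muc4, Muc13, Muc15, Muc16 and Muc20 and the secreted, gel-forming mucins Muc2 and Muc5b. They were taken by gene symbol, each from a probe set with a single symbol, and all 8 symbols were found among the 19938 genes tested. Each of the 8 was represented by 1 probe set. Gene expression had been measured with 1 microarray per whole uterus, in 4 Foxa2-deleted females (PgrCre/+ Foxa2flox/flox) and 4 control females (Pgr+/+ Foxa2+/+). In the deleted animals Cre recombinase was made from the Pgr locus, the gene of the progesterone receptor, which directs recombination to cells that use Pgr, and 1 of their Pgr alleles carried the Cre. The controls had no Cre and no floxed allele, so Foxa2 loss, Cre and the Pgr genotype cannot be told apart. Females of both genotypes had been mated to vasectomised wild type males, which gives a pseudopregnancy without embryos, and were sampled on day 3.5 of it, with the plug on day 0.5. Ages were not given. The labels call the replicates biological.

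A mucin carries long stretches rich in serine, threonine and proline to which chains of sugars are attached through oxygen. The membrane-bound kind is anchored in the apical membrane and forms a tall, charged coat that keeps other cells and microbes off the surface, while the gel-forming kind is secreted and swells into mucus. In the uterus this coat lines the luminal epithelium that an embryo must reach. In mice Muc1 is known to be high under estrogen and to decline before implantation, and in rats Muc4 is known to disappear from the luminal surface at that time.

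Of the 8 mucins, Muc4, Muc20 and Muc1 rose in Foxa2-deleted uteri and none fell. They were 13.1-fold, 4.45-fold and 2.97-fold higher than in controls as ratios of the deposited values. The control values of Muc4 and Muc20 lay below the array median and have no detection call, so these 2 ratios may rest on background signal in controls. The other 5, Muc13, Muc16, Muc15, Muc2 and Muc5b, did not pass the test, and their differences lay between -0.33 and 0.20 on the log2 scale. A gene was called at an adjusted p under 0.05 from limma, a linear model fitted to all genes at once, with Benjamini-Hochberg adjustment over the 19938 genes. At this threshold 898 genes (4.50%) were higher and 1311 (6.58%) lower, or 1082 higher and 982 lower when each array was centred on its median. The 0 lower calls among the mucins stand beside 1 member, Muc16, that was lower at an unadjusted p under 0.05, and 4 members were higher at that level. Over all genes 31.5% had an unadjusted p under 0.05, 14.5% higher and 17.0% lower, so such counts are common here.

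The promoters of the 3 mucins that rose are shown because these genes moved together. Each sequence is the 250 bases before the annotated start, from RefSeq on GRCm38.p6, written 5′ to 3′ on the strand of the gene. They are Muc4 at chr16:32735636-32735885 on the plus strand, Muc20 at chr16:32797436-32797685 on the minus strand and Muc1 at chr3:89228806-89229055 on the plus strand. Capitals mark TATAAA, the TATA box, and TGTTTAC, a forkhead motif, or its reverse complement.
Muc4: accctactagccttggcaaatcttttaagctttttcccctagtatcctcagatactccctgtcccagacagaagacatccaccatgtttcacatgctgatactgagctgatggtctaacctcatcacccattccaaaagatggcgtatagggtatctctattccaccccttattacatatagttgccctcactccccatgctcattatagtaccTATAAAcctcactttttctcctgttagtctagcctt
Muc20: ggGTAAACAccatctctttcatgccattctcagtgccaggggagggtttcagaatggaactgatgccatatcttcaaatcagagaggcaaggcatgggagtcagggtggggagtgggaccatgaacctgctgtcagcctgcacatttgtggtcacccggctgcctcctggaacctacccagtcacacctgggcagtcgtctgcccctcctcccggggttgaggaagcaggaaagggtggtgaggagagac
Muc1: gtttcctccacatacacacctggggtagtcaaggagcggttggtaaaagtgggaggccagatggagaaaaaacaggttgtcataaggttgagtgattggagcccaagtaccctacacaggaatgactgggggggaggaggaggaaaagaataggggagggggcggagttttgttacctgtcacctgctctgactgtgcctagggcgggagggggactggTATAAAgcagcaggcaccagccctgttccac
Muc4 and Muc1 each held TATAAA close to the start, with its first base 36 and 31 bases before it. Muc20 held none and had a forkhead match on the opposite strand that began 248 bases before the start.

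The search covered windows of 300 bases, 250 before and 50 after the start, on both strands, and 6 of the 8 mucins (Muc1, Muc2, Muc4, Muc13, Muc16 and Muc20) had a window, Muc13 2 of them. TGTTTAC lay in 1 of these 7 windows and in 3.65% of all 32851 promoter windows. TATAAA lay in 3 of the 7, those of Muc4, Muc1 and Muc2, and in 13.6% of all. GGGCGG, the GC box, lay in 2 of the 7, those of Muc1 and Muc2, and in 35.7% of all. The full estrogen receptor palindrome, GGTCA and TGACC 3 bases apart, lay in 0 of the 7 and in 0.0700% of all windows. The full progesterone receptor palindrome, AGAACA and TGTTCT 3 bases apart, lay in 0 of the 7 and in 0.00913% of all. These motifs do not overlap each other in the windows shown, and a match is a stretch of letters, not a measured binding site.

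The arrays followed their labels at the targeted gene. Foxa2 read 8.22, 8.20, 8.21 and 8.21 in deleted uteri, against 8.61, 8.82, 8.74 and 8.73 in controls, on the log2 scale of the deposited intensities. It fell by 0.52 (SE 0.05, adjusted p = 0.0013, limma), and the labels do not say whether its probe set lies in the deleted part. Pgr, the locus that carries the Cre in deleted animals, and the stromal gene Hoxa11 averaged 11.60 and 9.97 in deleted uteri. In control uteri they averaged 11.23 and 10.60, and all 4 means lay above the array medians of 8.25 to 8.32. Deleted uteri varied more among themselves, with array correlations, taken over genes that are no independent replicates, of 0.981 to 0.990 in deleted and 0.996 to 0.997 in control uteri.

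**Figure D1:**
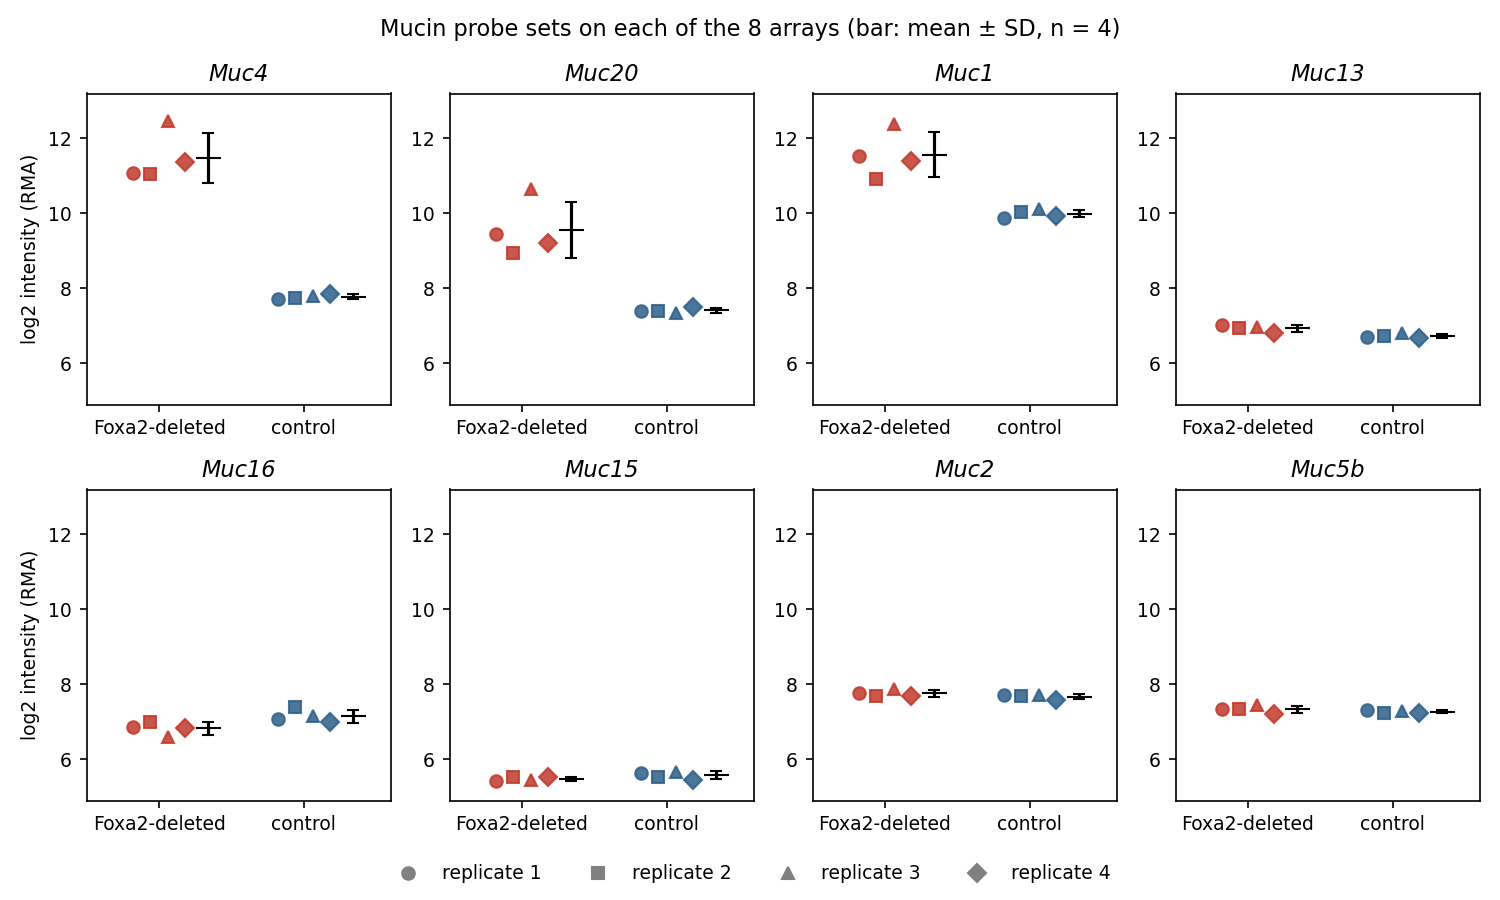
Log2 intensity of each mucin probe set on the 8 arrays, Foxa2-deleted left and control right in each panel, with a marker shape per replicate number and the mean ± SD of 4 uteri beside the points. In Muc4, Muc20 and Muc1 every deleted uterus lies above every control, and Foxa2-deleted replicate 3 is the highest.

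Muc4 encodes a very large membrane mucin that binds the receptor ERBB2. It read 11.07, 11.05, 12.47 and 11.36 in Foxa2-deleted replicates 1 to 4, against 7.72, 7.74, 7.81 and 7.85 in control replicates 1 to 4. The lowest deleted uterus lay 3.20 above the highest control. Its log2 difference was 3.71 (SE 0.28, adjusted p = 3.8e-04, limma). Only 3 genes of all those tested had a larger increase. In controls all 4 values lay below the array median and in deleted uteri all 4 lay above it.

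Muc20, a membrane mucin known to bind the receptor MET, read 9.46, 8.94, 10.65 and 9.21 in deleted uteri, against 7.40, 7.40, 7.34 and 7.51 in controls. The groups were 1.43 apart at their nearest. The log2 difference was 2.15 (SE 0.31, adjusted p = 0.0073, limma). Like Muc4, its controls lay below and its deleted uteri above the array median.

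Muc1, the widespread apical mucin of simple epithelia with a signalling tail inside the cell, read 11.54, 10.93, 12.38 and 11.41 in deleted uteri, against 9.89, 10.05, 10.11 and 9.93 in controls. Its probe set was above the array median in all controls as well as in all deleted uteri. The nearest values of the groups were 0.82 apart. The log2 difference was 1.57 (SE 0.25, adjusted p = 0.0106, limma).

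All deleted values of these 3 mucins lay above all control values, which held for 9.55% of all genes. The groups did not overlap in these 3 of the 8 mucins, and in 21.1% of all genes counting both directions. Foxa2-deleted replicate 3 was the highest array in each of them. Without it the differences were 3.38 for Muc4, 1.79 for Muc20 and 1.30 for Muc1, with adjusted p of 6.5e-07, 1.1e-04 and 0.0016 (limma). Omitting any other single array also left all 3 called, with adjusted p up to 0.0032, 0.0326 and 0.0415.

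Muc16 encodes the ovarian cancer antigen CA125, a giant membrane mucin of mesothelium and the female tract that binds mesothelin. It read 6.87, 7.01, 6.59 and 6.85 in deleted uteri, against 7.07, 7.39, 7.17 and 6.99 in controls. Its groups overlapped between Foxa2-deleted replicate 2 and control replicate 4. The difference was -0.33 (95% interval -0.57 to -0.08, adjusted p = 0.081, limma) and did not pass. No single omission made it pass, with adjusted p from 0.0509 to 0.184.

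Muc13, a membrane mucin best known from the gut, read 7.03, 6.94, 6.98 and 6.81 in deleted uteri, against 6.70, 6.74, 6.82 and 6.69 in controls. Only Foxa2-deleted replicate 4 fell within the range of the controls. The difference was 0.20 (95% interval 0.07 to 0.34, adjusted p = 0.0583, limma). It passed without that replicate, at 0.25 (adjusted p = 0.0246), and when arrays were weighted by their spread, at 0.22 (adjusted p = 0.0342).

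Muc15, a small membrane mucin first described in bovine milk fat globules, read 5.42, 5.53, 5.45 and 5.52 in deleted uteri, against 5.65, 5.54, 5.67 and 5.46 in controls. The groups overlapped and the difference was -0.10 (95% interval -0.23 to 0.03, adjusted p = 0.272, limma). RMA, the procedure behind these values, compresses differences of dim probe sets.

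The gel-forming mucins stayed within a narrow range. Muc2, the main mucin of intestinal goblet cells, read 7.77, 7.68, 7.89 and 7.70 in deleted uteri, against 7.71, 7.70, 7.72 and 7.58 in controls. Muc5b, a mucin of airway and cervical mucus, read 7.34, 7.34, 7.44 and 7.22 in deleted uteri, against 7.32, 7.24, 7.28 and 7.24 in controls. Both pairs of groups overlapped. The difference was 0.08 for Muc2 (95% interval -0.05 to 0.22, adjusted p = 0.368) and 0.07 for Muc5b (95% interval -0.06 to 0.19, adjusted p = 0.432, limma). For both, a rise of the size measured in Muc1 lies outside the interval on this compressed scale.

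**Figure D2:**
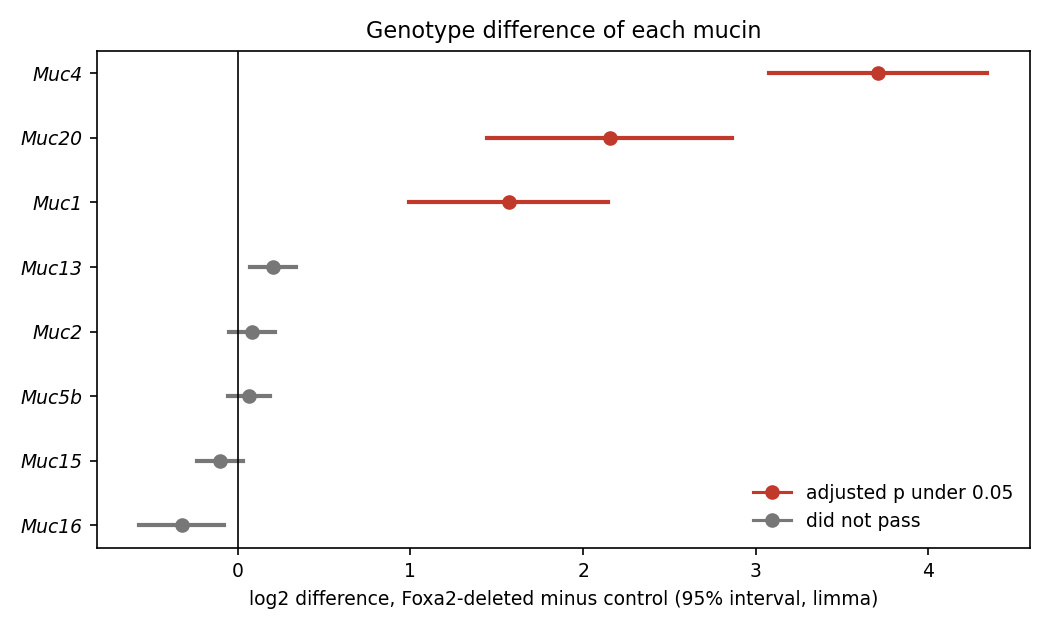
Log2 difference of each mucin, Foxa2-deleted minus control, with its 95% interval from limma, in order of size from top to bottom. Muc4, Muc20 and Muc1 stand at 3.71, 2.15 and 1.57, and the other 5 lie between 0.20 and -0.33.

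Of the 8 probe sets, 4 (Muc1, Muc4, Muc20 and Muc2) lay above the dimmest 25% of genes by mean over all arrays, a mean that the deleted uteri raise for Muc4, Muc20 and Muc1. Without detection calls it is unknown whether Muc4 and Muc20 in controls, and the other 5 mucins in either group, lay above background. Muc16, Muc13, Muc15, Muc2 and Muc5b were below the array median on all 8 arrays.

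Whether mucins changed unequally was tested for all 28 pairs, from the difference of their 2 log2 values on each array, by two-sided exact permutation tests over the 70 arrangements of the arrays. The smallest p such a test can give is 0.0286. It was reached in 22 pairs, which passed after Benjamini-Hochberg adjustment over the pairs (adjusted p = 0.0364). Muc4 rose more than Muc20 by 1.56 and more than Muc1 by 2.14, and Muc20 more than Muc1 by 0.58. Control values of Muc4 and Muc20 lay below the array median without detection calls, so the sizes of these gaps may depend on background signal. Muc4, Muc20 and Muc1 each also differed from each of the other 5, which restates the limma calls, since those 5 hardly moved. Among those 5, Muc13 also differed from Muc15 (0.30) and Muc16 (0.53). Muc16 also differed from Muc5b (-0.39) and Muc2 (-0.41), each with an exact permutation adjusted p = 0.0364. On omitting single arrays, 17 to 23 pairs passed. The pairs share members and are not independent, and the adjusted p passes only because many pairs share the smallest p. Muc2 and Muc5b differed from each other by 0.02 (exact permutation adjusted p = 0.714).

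Of the 3 mucins that rose, 2 share a place in the genome. In the RefSeq gene order of GRCm38.p6, Muc4 and Muc20 are direct neighbours on chromosome 16, on opposite strands, and their annotated ends overlap. Whether either probe set lies in the shared stretch is unknown. Of the 10 nearest tested genes, 5 on each side of the pair, 0 were called (limma), against 11.1% of all genes. An unadjusted p under 0.05 was seen in 2 of them, against 31.5% of all genes. These 2, named after their values were seen, were the transferrin receptor gene Tfrc (9.57 ± 0.61 in deleted and 8.78 ± 0.15 in control uteri, SD, n = 4 each, adjusted p = 0.0796) and the autophagy regulator gene Rubcn (9.40 ± 0.04 in deleted and 9.56 ± 0.05 in control uteri, SD, n = 4 each, adjusted p = 0.0592, limma). Tfrc passed in 1 omission, that of Foxa2-deleted replicate 3 (adjusted p = 0.0146).

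The gel-forming genes Muc6, Muc2, Muc5ac and Muc5b follow each other on chromosome 7, and 0 of the 4 were called, against 11.1% of all genes. Muc5ac, the main secreted mucin of the stomach surface, averaged 7.45 ± 0.02 in deleted and 7.35 ± 0.06 in control uteri (SD, n = 4 each), and Muc6, of gastric glands, 7.53 ± 0.04 and 7.48 ± 0.05 (SD, n = 4 each). Their adjusted p were 0.182 and 0.456, and Muc13, also on chromosome 16, is not beside Muc4. Muc1 lies on chromosome 3, and neither Thbs3 nor Trim46, its nearest tested neighbours, was called (adjusted p = 0.0973 and 0.0587, limma).

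**Figure D3:**
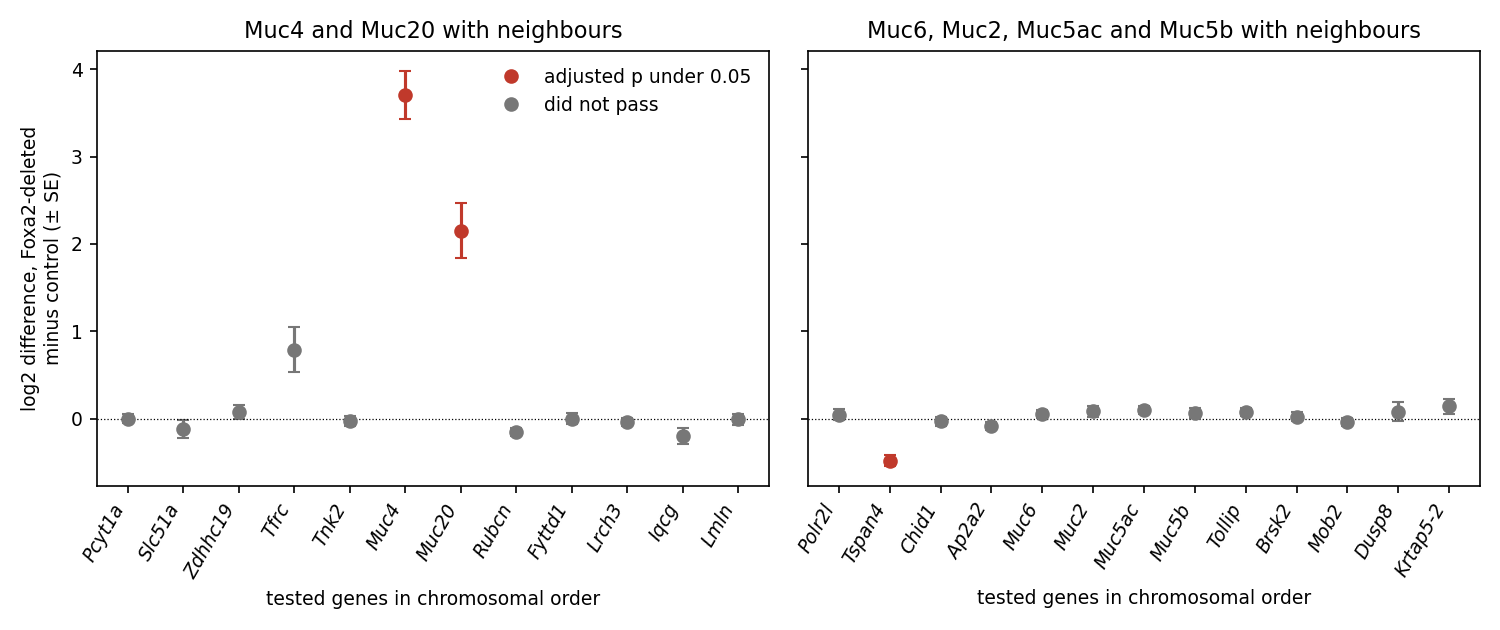
Log2 difference ± SE, Foxa2-deleted minus control, of tested genes in chromosomal order around Muc4 and Muc20 (left) and around the gel-forming mucins (right). Muc4 and Muc20 stand at 3.71 and 2.15 between neighbours that did not pass, and the 4 gel-forming mucins lie between 0.05 and 0.10, with the nearby tetraspanin gene Tspan4, which fell, at -0.48.

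The rest of the family was read from a list of 17 further mucins and mucin-like proteins, of which 12 were tested, Muc21 under the symbol Gm9573. None was called in either direction (limma), against 11.1% of all genes, while 2 were higher and 2 lower at an unadjusted p under 0.05. Their median difference was -0.03, beside 0.01 over all genes. Nearest to the threshold were 2 sialomucins. Emcn, the sialomucin of vessel walls, read 10.62, 11.17, 10.34 and 11.01 in deleted uteri, against 11.35, 11.33, 11.28 and 11.46 in controls, with a difference of -0.57 (adjusted p = 0.0551, limma). Cd164, a sialomucin of many cell types, differed by 0.30 (adjusted p = 0.0621, limma). Both passed without Foxa2-deleted replicate 2 or without replicate 4, with adjusted p down to 0.0153 and 0.0247.

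Mucins get their sugars in the Golgi, and the first is added to serine or threonine by the GALNT enzymes. Of 31 O-glycosylation genes tested, 2 rose, 2 fell and the other 27 missed the threshold, and the median difference was -0.08. At an unadjusted p under 0.05, 7 were higher and 7 lower (limma). Calls over all genes were 4.50% higher and 6.58% lower, so the counts of this list are near that share. Galnt3 read 9.32, 8.57, 10.24 and 9.13 in deleted uteri, against 7.90, 7.97, 7.94 and 8.01 in controls, a difference of 1.36 (SE 0.29, adjusted p = 0.0235, limma). Galnt12 read 8.99, 8.45, 9.56 and 8.68 in deleted uteri, against 7.88, 7.97, 8.02 and 7.98 in controls, a difference of 0.96 (SE 0.20, adjusted p = 0.0233, limma). Both of these initiating enzymes were highest on Foxa2-deleted replicate 3 and lowest on replicate 2, as Muc4, Muc20 and Muc1 were.

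Galnt1, another initiating enzyme, fell by 0.22 (adjusted p = 0.0389). B3gnt5, which is best known for extending sugar chains of glycolipids, fell by 0.91 (adjusted p = 0.0344, limma). These 4 calls did not hold in every omission of 1 array, and calls over all genes then also moved, from 2209 to as few as 556. Galnt3, Galnt12 and B3gnt5 no longer passed once any 1 control array or Foxa2-deleted replicate 1 was omitted, and their adjusted p then reached 0.0709, 0.0708 and 0.100. That of Galnt1 held only without Foxa2-deleted replicate 2 or control replicate 1 and reached 0.111 otherwise. Galnt1 also missed the threshold under each of the 3 other scalings (adjusted p = 0.0627, 0.0554 and 0.0683) and with all probe sets tested separately (0.0525).

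Of 18 genes of mucus assembly and packaging tested, 2 rose, 1 fell and 15 did not pass, with a median of 0.06. At an unadjusted p under 0.05, 6 were higher and 2 lower (limma). Calls over all genes were 4.50% higher and 6.58% lower. Clca1, which encodes a secreted protease of goblet cell mucus, read 12.45, 10.96, 12.57 and 11.44 in deleted uteri, against 7.29, 7.35, 7.28 and 7.32 in controls. Its difference of 4.55 (SE 0.32, adjusted p = 3.5e-04, limma) exceeded that of any mucin. Kcnn4, a potassium channel of secretory epithelia, rose by 1.05 (adjusted p = 0.0376), and Clca2, a membrane relative of Clca1, fell by 0.74 (adjusted p = 0.0233). The call of Clca1 held without each array, that of Clca2 ended on omitting any 1 control (reaching an adjusted p of 0.0713), and that of Kcnn4 on omitting any 1 control array or Foxa2-deleted replicate 1 (reaching 0.102) and with all probe sets tested separately (0.0505).

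Membrane mucins can be cut off the surface by proteases. Of 11 shedding and cleavage genes tested, 1 rose, 0 fell and the other 10 missed the threshold (limma), with a median of 0.05. At an unadjusted p under 0.05, 3 were higher and 0 lower. Calls over all genes were 4.50% higher and 6.58% lower. The metalloprotease gene Mmp7 read 8.32, 8.05, 9.67 and 8.22 in deleted uteri, against 7.16, 7.20, 6.98 and 7.22 in controls. It rose by 1.43 (SE 0.31, adjusted p = 0.0256, limma), a call that ended on omitting any 1 control (reaching an adjusted p of 0.0786). Foxa2-deleted replicate 3 was again the highest.

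Of 15 partners and apical anchors of membrane mucins, 3 rose, 2 fell and 10 did not pass, with a median of 0.14. At an unadjusted p under 0.05, 6 were higher and 4 lower (limma). Calls over all genes were 4.50% higher and 6.58% lower. Erbb2, the receptor that MUC4 binds, read 9.64, 9.50, 9.82 and 9.91 in deleted uteri, against 9.37, 9.37, 9.46 and 9.34 in controls. It rose by 0.33 (adjusted p = 0.0428), and Slc9a3r1, an apical scaffold protein, by 0.35 (adjusted p = 0.0329, limma). The third, named after its values were seen, was Ezr, which encodes the membrane-to-actin linker ezrin and rose by 0.39 (adjusted p = 0.0465).

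In the other direction Rdx, which encodes the related linker radixin, fell by 0.32 (adjusted p = 0.0131), and Icam1, an adhesion molecule that human MUC1 binds, fell by 0.39 (adjusted p = 0.0122, limma). Omitting single arrays left both decreases called. The increases were less stable. Erbb2 passed in 1 of the 8 omissions, that of Foxa2-deleted replicate 2, and reached an adjusted p of 0.118 in the others. Ezr passed only without Foxa2-deleted replicate 2 or 3 (up to 0.125 otherwise), and Slc9a3r1 no longer passed on omitting any 1 control array or Foxa2-deleted replicate 1 (reaching 0.0957). With all probe sets tested separately Erbb2 and Ezr also missed the threshold (adjusted p = 0.0576 and 0.0618).

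**Figure D4:**
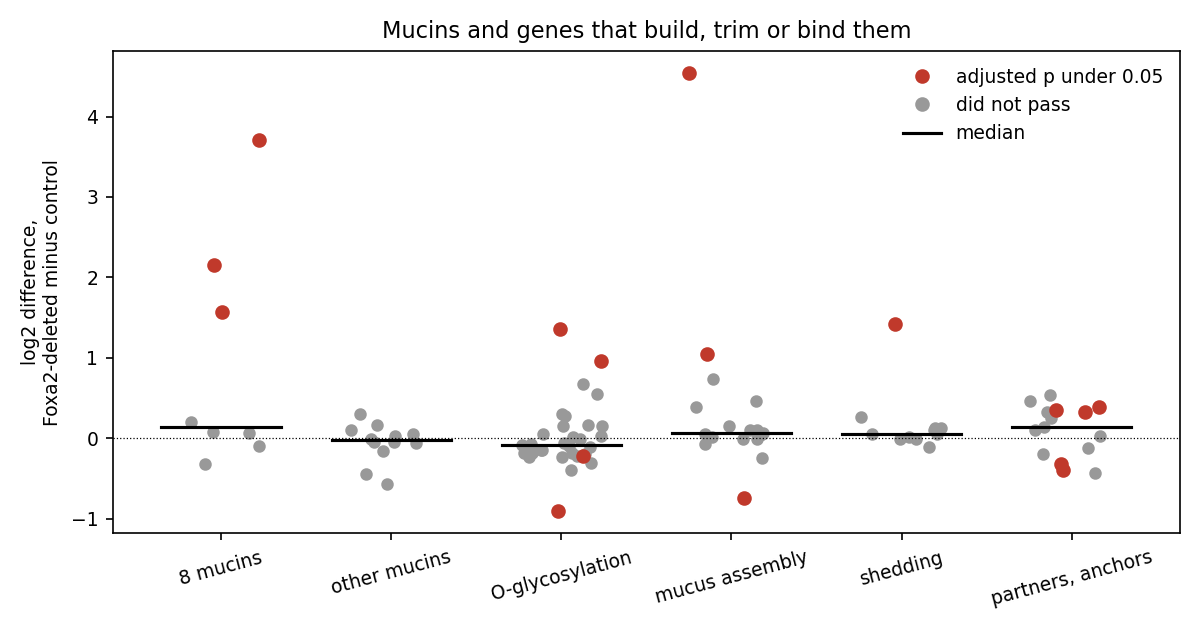
Log2 differences, Foxa2-deleted minus control, of the 8 mucins and of 5 lists of genes that build, package, cut or bind mucins, with 1 point per gene and a line at each median. The medians lie between -0.08 and 0.14, and the increases above 1 are those of Muc4, Muc20, Muc1, Galnt3, Clca1, Kcnn4 and Mmp7.

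In whole tissue, more mucin transcript per epithelial cell and more epithelial cells cannot be told apart. Of 15 markers of epithelium, 5 rose, 0 fell and the other 10 missed the threshold (8 higher and 1 lower at an unadjusted p under 0.05, limma). Their mean log2 level lay between 10.14 and 11.02 in deleted and between 9.82 and 9.98 in control uteri. It exceeded the control mean by 0.46, 0.24, 1.12 and 0.63 in Foxa2-deleted replicates 1 to 4, so replicate 3 led here too. Led by the keratin gene Krt19 (1.86, SE 0.22, adjusted p = 0.0034) and the epithelial transcription factor gene Elf3 (1.78, SE 0.25, adjusted p = 0.0067, limma), the mean of this list was 0.61 higher in deleted uteri. The members were uneven, with 13 of the 15 differences above 0. Named after their values were seen, Cldn3 (-0.473) and Cldn4 (-0.110) were lower without passing, and Krt18 (0.107) and Prom1 (0.035) hardly differed. Calls over all genes were 4.50% higher and 6.58% lower.

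Set against that marker mean on the same array, a comparison chosen after the data were seen, the 3 mucins remained higher. Muc4 minus the marker mean was 0.97 ± 0.33 in deleted and -2.12 ± 0.10 in control uteri (SD, n = 4 each), a difference of 3.09. The same difference was 1.54 for Muc20 and 0.96 for Muc1, each with an exact permutation p = 0.0286, the smallest possible, and an adjusted p = 0.0327 over the 8 mucins. All deleted uteri lay above all controls in each of these 3. The other 5 mucins were lower relative to the marker mean, by construction, since that mean rose and they hardly moved. The outcome for the 3 was likewise largely fixed, as each had risen by more than the marker mean. Their adjusted p passes only because most of the other 5 also reached the smallest p, so this comparison adds no separate test.

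Other marker lists moved as well, and their part in the mucin increases was not tested. All lists were chosen with earlier results of these data known, so their counts describe the lists and are no independent finding. Over all genes 4.50% were called higher and 6.58% lower (limma). Of 12 estrogen-responsive genes, 11 rose and 0 fell (11 and 0 at an unadjusted p under 0.05, limma), with a median of 2.23. Besides Clca1 the iron-binding proteins Lcn2 (13.11 ± 0.15 in deleted and 8.87 ± 0.22 in control uteri, SD, n = 4 each) and Ltf (12.24 ± 0.56 and 8.06 ± 0.22, SD, n = 4 each) and the cornified envelope gene Sprr2f led this list, with adjusted p of 4.5e-07, 2.4e-04 and 5.3e-04. Of 12 progesterone-responsive genes, 7 fell and 0 rose (8 lower and 1 higher at an unadjusted p under 0.05, limma), with a median of -0.73. Foxa2-deleted replicate 2 stood apart in the second list, at -0.19 from the control mean against -1.11, -1.10 and -1.11 in replicates 1, 3 and 4. In Muc4 that array, at 3.27 above the control mean, was the lowest deleted uterus, beside replicate 1 at 3.29. It was also the lowest in Muc20, at 1.527 with 1.798 in the next, and in Muc1, at 0.935 with 1.415 in the next.

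Named by the same rule, the activin antagonist gene Fst fell by 1.40, the hedgehog ligand gene Ihh by 0.76, the zinc finger gene Zbtb16 by 1.46 and the chaperone gene Fkbp5 by 0.71, with adjusted p from 0.0238 to 0.0279 (limma). Each of these calls ended on omitting any 1 control, and those of Fst and Ihh also on omitting Foxa2-deleted replicate 1. The adjusted p then reached 0.0761 for Fst, 0.0776 for Ihh, 0.0825 for Zbtb16 and 0.0816 for Fkbp5.

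Of 7 markers of luminal epithelium, 4 rose and 1 fell, and their mean log2 level lay between 9.45 and 10.03 in deleted and between 8.66 and 8.92 in control uteri. At an unadjusted p under 0.05, 4 were higher and 2 lower (limma). Sprr2f and the GABA receptor subunit gene Gabrp led the increases, with differences of 3.42 (SE 0.28) and 3.13 (SE 0.51). The members split, as Ihh fell and Msx1 (-0.645) and Calb1 (-0.602), named after their values were seen, were lower without passing. Sprr2f and Ihh also belong to the estrogen-responsive and progesterone-responsive lists. Of 9 gland markers, which include Foxa2 itself, 5 fell and 1 rose, with means from 7.47 to 7.83 in deleted and from 8.57 to 9.18 in control uteri. The chemokine gene Cxcl15 (6.04 ± 0.14 in deleted and 10.02 ± 0.21 in control uteri) and the trypsin inhibitor gene Spink1 (5.52 ± 0.09 and 9.80 ± 0.62, SD, n = 4 each) led the decreases. This list split too, with 5 lower and 1 higher at an unadjusted p under 0.05 (limma). Named after the values were seen, Aldh1a1 was the gland marker that rose, by 1.20 (adjusted p = 0.0269, limma). Prss29 (-0.855), Sox9 (-0.105) and Lif (0.117) did not pass.

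Neutrophils and the squamous epithelium of the nearby cervix and vagina were read from their own marker lists. Of 6 neutrophil markers, 2 rose and 0 fell (4 and 0 at an unadjusted p under 0.05, limma). Their mean log2 level lay between 7.89 and 9.07 in deleted and between 7.13 and 7.37 in control uteri, with replicate 3 the highest. The chemokine receptor gene Cxcr2 rose by 2.33 (adjusted p = 0.0154) and Ly6g by 1.21 (adjusted p = 0.0212, limma). Both calls ended on omitting control replicate 2 or 3, and that of Ly6g also on omitting control replicate 1 or 4 or Foxa2-deleted replicate 1, reaching adjusted p of 0.0539 and 0.066. Of 12 squamous markers, 3 rose and 0 fell (6 and 0 at an unadjusted p under 0.05), the differences ran from -0.05 to 0.43, and the list mean lay between 7.17 and 7.38 in deleted and between 7.04 and 7.18 in control uteri. Krt4 rose by 0.22 (adjusted p = 0.0238) and Krt13 by 0.43 (adjusted p = 0.0427, limma). Both probe sets lay below the array median on every array and have no detection call, so these shifts may rest on background signal. Krt4 no longer passed on omitting Foxa2-deleted replicate 1 or control replicate 1, 2 or 4 (reaching an adjusted p of 0.0781), and Krt13 held its call only without Foxa2-deleted replicate 2 or 4 (up to 0.118 otherwise). Krt13 also missed the threshold under cyclic loess (0.0515) and with all probe sets tested separately (0.0572).

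**Figure D5:**
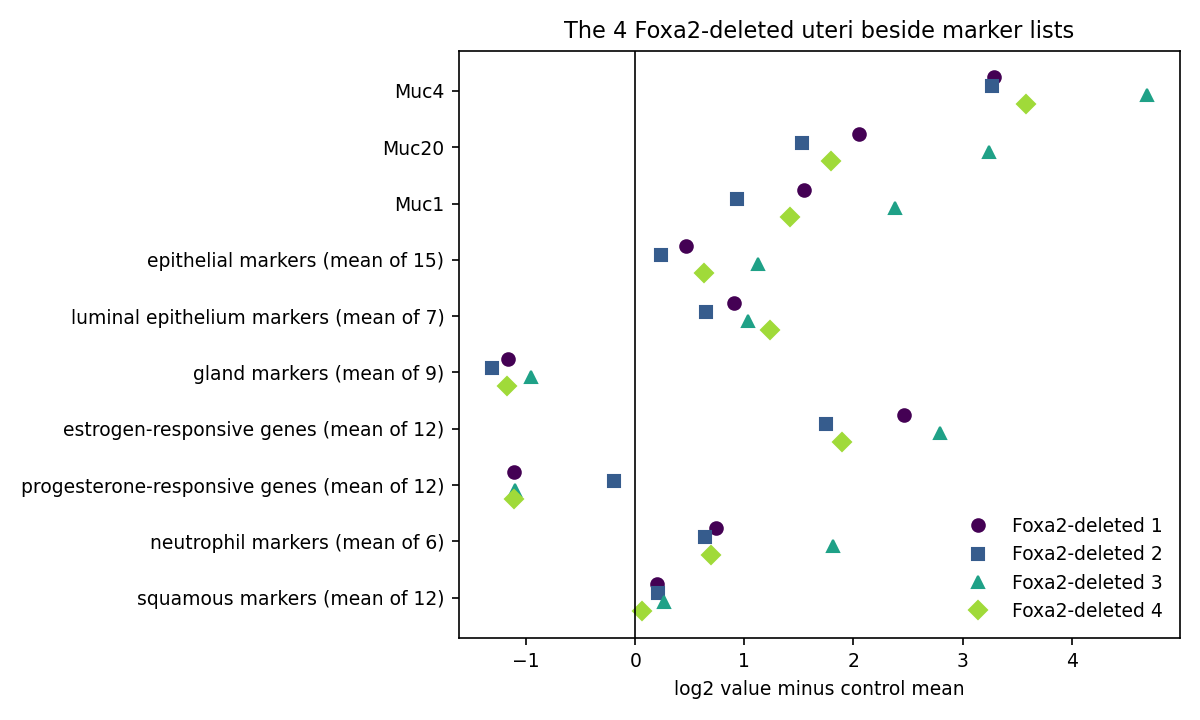
Log2 value minus the control mean in each of the 4 Foxa2-deleted uteri, for Muc4, Muc20 and Muc1 and for the mean of 7 gene lists. Replicate 3 is the rightmost in every row except the luminal markers, led by replicate 4, and the progesterone-responsive genes, led by replicate 2. Replicate 2 lies nearest to the controls in every row except the gland and squamous markers.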

How the data were processed

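Total RNA of 8 whole uteri, 150 ng each, was labelled with biotin for Affymetrix arrays, per the labels' protocols. The authors' deposited values are log2 intensities from RMA, which corrects background, normalises arrays together and summarises probes, per the submitters' processing notes, which also name limma. No version or genome build is given in the sources used here. Values ran from 2.73 to 14.33 and no detection call comes with them. The number of arrays limits the precision.

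Of 35556 probe sets, 21789 had 1 gene symbol in GEO's platform annotation, 1621 several and 12146 none, and only the first were used in the main test. The probe set with the highest mean stood for each gene (19938 genes). Differences, deleted minus control, came from limma 3.58.1 in R 4.3.3 (lmFit, then eBayes) with no covariate. Intervals are 95% from that fit. The same steps were also run on simulated data with 19938 genes. They recovered 87% of 100 genes altered 1.5-fold, 96% of 50 altered 2-fold and all 50 altered 4-fold, and also called 6 unaltered genes. In the measured data, array correlations were 0.981 to 0.990 among deleted and 0.996 to 0.997 among control uteri. Recovery under such an unequal spread of the groups was not tested.

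The 8 mucins and all gene lists were chosen with earlier results of these data known, and counts over lists are descriptions. Of 214 listed genes 202 were tested. Named were the mucins, Foxa2 and Pgr, in each pathway or hormone list up to 4 and in each cell type list up to 2 called genes with the smallest p (or the 2 smallest p where none passed), and for each mucin the 3 genes with the highest Pearson correlation over the 8 arrays among genes with an SD of at least 0.25, mucins of the 8 and predicted symbols left out. Alternatives covered 3 scalings, 2 filters on dim genes, the choice of probe set, the variance prior, array weights, the replicate number as a block and leaving out each array. Sequences are RefSeq's on GRCm38.p6. Protein sequences were not used here.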

Additional observations from a re-analysis of the deposited data

Results flagged for a closer look

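In 6 of 96 groups of 4 uteri among the named genes, the highest or lowest array lay farther from its nearest neighbour, relative to the range of its group, than the 95% critical value of Dixon's test allows. Chance gives this in about 1 in 20 groups.

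Among the mucins it occurred in Muc2, where control replicate 4 read 7.58 against 7.70 or more in the other controls. Control replicate 4 was also the odd array in Sprr2f (7.55, nearest control 7.96), in Dnah5, a gene of motile cilia (7.62, nearest control 7.71), and in the stromal gene Hoxa11 (10.66, nearest control 10.58). Foxa2-deleted replicate 3 was the odd array in Mmp7 (9.67, nearest deleted uterus 8.32) and in Cxcl15 (6.25, nearest deleted uterus 5.97).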

How the results depend on the processing

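Muc4, Muc20 and Muc1 kept their direction and their call under every other scaling, filter, weighting, block and omission that could be run on them, with differences from 3.38 to 3.85, from 1.79 to 2.36 and from 1.30 to 1.78. Muc20 was not among the genes left when the lower 50% were dropped. Muc13 passed with array weights (0.22) and ranged from 0.17 to 0.25 on omitting single arrays. Relative to the epithelial marker mean, chosen after seeing the data, Muc13, Muc5b and Muc2 turned to -0.41, -0.55 and -0.53, and Muc15 and Muc16 passed at -0.72 and -0.94, which the construction brings about, since the marker mean rose. The mucins called higher numbered 3 to 4 and those called lower 0 on omitting single arrays.

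Calls over all genes moved more. They ranged from 556 to 3055 without single arrays, from 196 to 1372 for higher and from 348 to 1777 for lower genes. The lowest total, 556, was that without control replicate 4, and 3055 that without Foxa2-deleted replicate 4. Higher genes numbered 533 with the lower 50% left out and 1351 with array weights. With the replicate number as a block 1062 genes were called, 435 higher and 627 lower, and Muc4, Muc20 and Muc1 stayed called (adjusted p = 0.0053, 0.028 and 0.0273). Arrays of the same number did not deviate together (correlations across genes of 0.06, -0.05, -0.03 and -0.01), so the number is only a name. Pgr, called at 0.37, lost its call with the block (adjusted p = 0.0777), with quantile normalisation applied again (0.0505), with all probe sets tested (0.0576) and on omitting Foxa2-deleted replicate 1 or 4 or any 1 control (reaching 0.105). The cause of these shifts was not tested. Of 35 called genes looked at beyond the mucins, Foxa2 and Pgr, 14 stayed called in all 8 omissions. Of the 35, 13 lost their call with the block, 6 with all probe sets tested separately, 3 under cyclic loess, 1 under each of the 2 other scalings and 0 with array weights.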

Other observations

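The genes whose levels followed Muc4 most closely over the 8 arrays were Aurka, Alpl and Plet1, with Pearson correlations of 0.995, 0.993 and 0.991. Muc20 was followed by the phosphate transporter gene Slc34a2, the mucosal chemokine gene Ccl28 and Serinc2 (0.999, 0.998 and 0.997), and Muc1 by Perp, Serinc2 and Lrrc26 (0.994 each). The arrays fall into 2 genotypes, so these correlations, given over 8 arrays and searched among 2509 genes, mostly repeat the genotype difference. Ccl28 differed by 2.42 and Alpl, an alkaline phosphatase gene, by 3.07, while Aurka, a mitotic kinase gene, differed by 0.49. Muc13 was followed by Aspn, Itgb3 and Anxa8 (0.957 to 0.962), Muc16 by Hsf2, Adh5 and Gstm6 (0.933 to 0.958), Muc5b by Glipr2, Nipal4 and P2ry2 (0.918 to 0.935), Muc15 by Sik1, Nr4a1 and Jade1 (0.843 to 0.912), and Muc2 by Thsd4, Tmem102 and Rhobtb2 (0.904 to 0.907). These 5 mucins were not called and lay below the array median on all 8 arrays. Their correlations are the highest found in a search of 2509 genes and carry no test.

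Markers of other cells that a whole uterus can hold were counted beside the mucins, from lists also chosen with earlier results known. The shares of all genes called were 4.50% higher and 6.58% lower. Of 6 goblet cell genes, 1, Clca1, rose and 0 fell (limma; 1 higher and 0 lower at an unadjusted p under 0.05), and this list holds Muc2 itself. Of 6 mesothelial genes, 1, Krt19, rose and 0 fell (1 higher and 0 lower unadjusted). Of 8 oviduct and cilia genes, 0 rose and 1, Dnah5, fell (0 higher and 2 lower unadjusted). Of 7 endothelial genes, 6 fell, with the smallest p in Pecam1 (-0.66) and Tie1 (-0.70), and 0 rose (7 lower and 0 higher unadjusted). Of 6 leukocyte genes, 2 fell, Nkg7 (-1.10) and Ptprc (-0.49), calls that ended on omitting any 1 control (reaching adjusted p of 0.0674 and 0.078), and 0 rose (2 lower and 1 higher unadjusted). Of 8 stromal genes, 0 were called and 4 were lower at an unadjusted p under 0.05 (17.0% of all genes), with Hoxa11 at -0.63 and Pdgfra at -0.32. Of 6 smooth muscle genes, 1, Actg2, rose, by 0.51 (adjusted p = 0.0449), a call that, on omitting single arrays, held only without Foxa2-deleted replicate 4, and that was lost under cyclic loess (0.0532) and with all probe sets tested (0.0599).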
